A study of Mus musculus with 12 samples.

Results

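Amino acid transporter genes of the SLC3, SLC7, SLC36, SLC38 and SLC43 families were followed in cultured cortical glial cells of the mouse. The genes were chosen by symbol and by a protein coding biotype, which gave 35 of the 43322 genes in the count table. Of these, 25 had at least 120 counts over the 12 libraries and are described below, and all 25 passed the low-count filter of the test. The other 10 held between 0 and 99.5 counts in all. Poly-A RNA was sequenced from 3 groups of 4 libraries. Thapsigargin cells had 3 µM thapsigargin for 60 min, a blocker of SERCA, the pump by which the endoplasmic reticulum takes up calcium. Calcium-free cells were kept for 60 min in medium without calcium and with the chelator EGTA, and control cells had vehicle. All groups were wild-type CD1 cells from the cortex of mice of postnatal days 3 to 5, grown with epidermal growth factor and split before use. Per the labels' protocols, the tissue of a preparation came from a single mouse, and the series text calls the 4 samples of a group biological replicates.

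SLC7 light chains of the heterodimeric kind are exchangers that reach the plasma membrane only when bound to an SLC3 heavy chain, which itself carries no amino acid. Cationic SLC7 members and most SLC38, SLC36 and SLC43 members work without such a partner. In astrocytes, cystine uptake through the Slc7a11 exchanger feeds glutathione synthesis, and glutamine leaves through system N carriers of the SLC38 family. Several of these genes, among them Slc3a2, Slc7a5, Slc7a11 and Slc38a2, are known targets of ATF4, a transcription factor whose translation rises under endoplasmic reticulum stress and amino acid shortage.

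Library totals lay between 36.19 and 42.57 M counts. Replicate 4 stood apart from replicates 1 to 3 in every group. Its level lay outside the range of replicates 1 to 3 in all 3 groups for 15 of the 25 transporter genes, 6 above and 9 below it, which is 60% against 48.2% of all genes tested. For Slc7a14 replicate 4 held 0.282 to 0.293 of the mean of replicates 1 to 3, and for Slc43a1 1.70 to 2.16 times that mean. The cells are labelled primary astrocytes, and all 12 astrocyte markers were found, with summed levels of 7321 to 8380 CPM (counts scaled by library size) with thapsigargin, 8508 to 9365 CPM in calcium-free medium and 8215 to 9274 CPM in control. All 10 microglia markers were found at summed levels of 72.1 to 108 CPM, 85.2 to 124 CPM and 89.2 to 145 CPM in the same groups, lowest in replicate 4 each time. The 9 endothelial, mural and fibroblast markers summed to 87.7 to 118 CPM in replicate 4 and to 586 to 713 CPM in replicates 1 to 3, with Pecam1, Cdh5, Cldn5 and Lum under 1 CPM throughout. The 8 neuron markers summed to 149 to 177 CPM with thapsigargin, 193 to 217 CPM in calcium-free medium and 182 to 211 CPM in control. Among them Snap25, Slc17a7 and Rbfox3 were under 1 CPM in every library. The 9 oligodendrocyte lineage markers summed to 1641 to 1990 CPM, 1792 to 2091 CPM and 1786 to 1910 CPM in the same groups. Of these, Sox10 and Mog were under 1 CPM in every library. In these bulk samples, fewer cells of a type and less RNA per cell cannot be told apart.

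In control cells 13 of the 25 genes were above 10 TPM (transcript abundance scaled by summed exon length and library) and 4 were under 1 TPM. Slc7a5, the light chain LAT1 that exchanges large neutral amino acids such as leucine, was highest at 275 ± 42.6 TPM (SD, n = 4). Slc38a3, a system N glutamine carrier, followed at 218 ± 31.6 TPM, and the ranges of the pair overlapped across libraries. Slc38a2, a sodium-coupled system A carrier of small neutral amino acids, was at 151 ± 16.8 TPM. Slc3a2, the heavy chain 4F2hc, was at 104 ± 17.9 TPM and its range lay below that of Slc38a2. Slc38a10, a broadly expressed SLC38 member, was at 63.9 ± 3.49 TPM, and its range overlapped that of the system A carrier Slc38a1 at 60.4 ± 7.11 TPM. The 5 highest genes, Slc7a5 to Slc38a10, held 78.4% of the summed 1036 TPM of the 25 genes. Between 42.7 and 10.3 TPM lay, in order, Slc7a2, Slc38a7, Slc43a3, Slc7a1, Slc43a2, Slc36a4 and Slc36a1. Between 6.62 and 1.64 TPM lay Slc7a11, Slc7a6, Slc7a4, Slc7a8, Slc7a10, Slc7a7, Slc38a9 and Slc38a6, and below 1 TPM were Slc43a1, Slc36a2, Slc7a3 and Slc7a14. Of the 24 neighbouring pairs in this order, 14 had overlapping control ranges. In 2 of these 14 the order was nevertheless the same in all 4 control libraries, Slc7a5 above Slc38a3 by 1.23 to 1.29 times and Slc7a7 above Slc38a9 by 1.03 to 1.53 times, and the other 12 pairs did not differ beyond their spread. Summed exon length can understate a gene with long, rarely used exons. That length was 9333 bases for Slc3a2, 3513 for Slc7a5, 3366 for Slc38a3 and 4664 for Slc38a2. In CPM, without this scaling, Slc3a2 averaged 381 in control, against 377 for Slc7a5, 287 for Slc38a3 and 276 for Slc38a2. The place of Slc3a2 in the order thus depends on the unit. The 10 genes under 120 counts were Slc7a12 and Slc7a15 with 0 counts, Slc36a3 with 1.5, Slc7a9 with 4, Slc38a8 with 6, Slc38a11 with 9, Slc7a13 with 18, Slc38a5 with 43, Slc38a4 with 56, and the heavy chain gene Slc3a1 with 99.5.

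**Figure D1:**
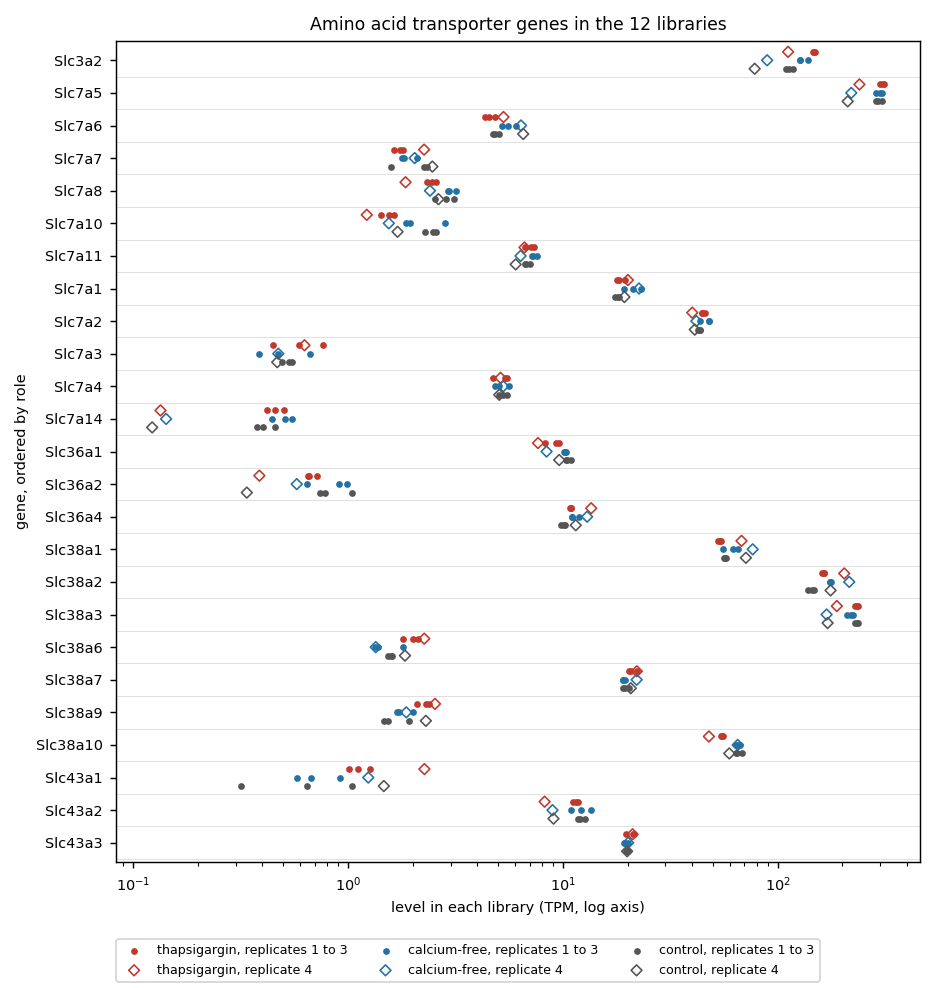
Level of each described transporter gene in TPM (log axis) in each of the 12 libraries, with genes ordered by role from top to bottom and the groups thapsigargin, calcium-free and control drawn one above the other for each gene. Diamonds are replicate 4 and dots are replicates 1 to 3. Slc7a5 averaged 275 TPM in control and Slc7a14 0.340 TPM, and the diamonds lie apart from the dots for many genes.

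Promoters were searched because ATF4 acts through a composite C/EBP-ATF element, and the transcription factors CREB and AP-1 through elements of their own. RefSeq promoter windows on GRCm38.p6, from 250 bases before to 50 bases after the start site, were matched by gene ID. This gave 24 windows for 17 of the 25 genes. No window was found for Slc7a5, Slc7a2, Slc7a3, Slc7a4, Slc36a2, Slc38a1, Slc38a3 and Slc43a3, which were not searched. Among the 17 were all 7 genes that passed the test in some comparison below. Both strands were searched for the C/EBP-ATF core TGATGNAA, which 3.97% of the 32851 promoters hold, the CRE TGACGTCA, which 1.79% hold, and the AP-1 element TGANTCA, which 7.81% hold. Counted by gene, as below, these shares are 4.51%, 2.03% and 8.97% of 27025 genes. None of the matches found here shared bases with a match of another motif. The core TGATGNAA was found in Slc7a11 and Slc7a7 and in 0 of the 7 genes that passed. The CRE was found in Slc38a6, and the AP-1 element in Slc7a1, Slc38a10 and Slc38a7. A match describes letters only. The 250 bases before the start site are printed for the 3 genes among the 7 that hold a match, and for Slc7a11, which was added after its values were seen because it holds the core in both orientations. Sequences run 5′ to 3′ on the strand of the gene, and capitals mark the matches. The Slc38a10 match began 166 bases before the start site (chr11:120151352-120151601, minus strand), that of Slc7a1 123 bases before it (chr5:148399905-148400154, minus strand), and that of Slc38a6 121 bases before it (chr12:73286598-73286847, plus strand). The Slc7a11 matches began 66 and 47 bases before the start site (chr3:50443614-50443863, minus strand), the nearer of them on the opposite strand.
Slc38a10: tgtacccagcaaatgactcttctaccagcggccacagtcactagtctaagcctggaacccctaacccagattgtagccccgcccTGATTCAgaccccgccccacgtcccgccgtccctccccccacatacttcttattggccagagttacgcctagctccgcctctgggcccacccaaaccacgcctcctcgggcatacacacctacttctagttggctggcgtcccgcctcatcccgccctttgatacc
Slc7a1: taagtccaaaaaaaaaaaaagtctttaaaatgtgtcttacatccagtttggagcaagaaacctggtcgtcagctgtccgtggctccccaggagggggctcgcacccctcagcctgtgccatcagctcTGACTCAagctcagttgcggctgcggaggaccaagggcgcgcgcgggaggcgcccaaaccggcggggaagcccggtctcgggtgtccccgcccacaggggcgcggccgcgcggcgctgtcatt
Slc38a6: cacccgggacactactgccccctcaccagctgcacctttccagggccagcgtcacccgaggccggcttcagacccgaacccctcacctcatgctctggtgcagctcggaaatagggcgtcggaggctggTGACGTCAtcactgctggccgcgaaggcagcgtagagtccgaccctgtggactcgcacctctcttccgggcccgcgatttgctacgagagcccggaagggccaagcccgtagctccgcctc
Slc7a11: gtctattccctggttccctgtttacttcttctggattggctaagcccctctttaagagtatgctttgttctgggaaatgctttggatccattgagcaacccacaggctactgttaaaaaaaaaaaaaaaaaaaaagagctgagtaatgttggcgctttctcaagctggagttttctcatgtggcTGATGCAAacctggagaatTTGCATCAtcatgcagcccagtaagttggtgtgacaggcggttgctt

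With thapsigargin, 4 transporter genes fell and 0 rose against control. The 4 were the light chains Slc7a10 and Slc7a8, the lysosomal proton-coupled carrier Slc36a1 and the SLC38 member Slc38a10. The decreases ran from -0.38 to -0.76 on the log2 scale. The most abundant carriers of the set, Slc7a5, Slc38a3, Slc38a2 and Slc3a2, did not pass. The test was the edgeR quasi-likelihood test over all 17077 genes with a threshold of 0.05 on the adjusted p, and in it 14.8% of all genes were lower and 16.4% higher with thapsigargin. The share of transporter genes called lower, 16%, was thus near that of all genes. At an unadjusted p under 0.05 there were 6 genes, all of them lower, and DESeq2 called 0 higher and 5 lower. Over all 15883 genes it tested here, DESeq2 called 3146 higher and 2344 lower. The median log2 fold change of the 25 genes was -0.085, against -0.0474 over all genes.

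Among the light chains, Slc7a10 had the largest decrease. This gene encodes Asc-1, an exchanger of small neutral amino acids including D-serine (gene 53896, GRCm39 chromosome 7, 34885520 to 34900539, plus strand). It was at 1.34, 1.16, 1.27 and 1.00 CPM with thapsigargin, at 2.50, 1.70, 1.63 and 1.35 CPM in calcium-free medium and at 2.33, 2.22, 2.04 and 1.50 CPM in control. Every thapsigargin library was below every control library, while the calcium-free and control libraries overlapped. Slc7a10 fell by 0.76 ± 0.20 (SE) on the log2 scale against control (adjusted p = 0.0118) and was lower in 4 of 4 numbered pairs. Pairs here join libraries of the same replicate number, which the values bear out only for replicate 4. The level of Slc7a10 rests on 801 counts over the 12 libraries. Its gene model overlaps 237 bases of Lrp3 on the opposite strand, which held 22363 counts, and Lrp3 also passed, at -0.22 ± 0.06 (adjusted p = 0.00995). The strand setting of the counting is not given in the sources used here, so the share of Lrp3 reads in this value was not tested.

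Slc7a8 encodes LAT2, an exchanger of small and large neutral amino acids (gene 50934, chromosome 14, 54959672 to 55019343, minus strand). It was at 7.13, 6.77, 6.44 and 5.16 CPM with thapsigargin, at 8.79, 8.73, 9.40 and 7.10 CPM in calcium-free medium and at 7.80, 8.69, 9.53 and 7.89 CPM in control. The thapsigargin range lay below the control range. Slc7a8 fell by 0.41 ± 0.12 against control (adjusted p = 0.0174), and was lower in 4 of 4 pairs. Without control replicate 3 the call was lost (adjusted p = 0.0583). The astrocyte marker list, to which Slc7a10 belongs, had 4 of 12 genes lower and 1 higher in the same comparison, with a median of -0.23, and 10 lower with the block. The microglia markers had 2 of 10 lower and 0 higher, with a median of -0.40, and 9 lower with the block. Over all genes 14.8% were lower, and 28.2% with the block. The part of cell make-up in these decreases was not tested.

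Slc7a6 encodes y+LAT2, which exports cationic amino acids in exchange for neutral ones with sodium (gene 330836, chromosome 8, 106894718 to 106925346, plus strand). It was at 21.9, 20.9, 23.4 and 25.7 CPM with thapsigargin, at 27.0, 29.0, 31.2 and 32.8 CPM in calcium-free medium and at 27.0, 25.1, 25.7 and 34.1 CPM in control. Thapsigargin replicate 4 reached into the control range. The difference from control, -0.28 ± 0.10, missed the threshold (adjusted p = 0.0507) although it was negative in 4 of 4 pairs, and passed with the replicate number as a block (adjusted p = 2.08e-04) and by DESeq2 (adjusted p = 0.0407).

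The most abundant light chain, Slc7a5 (gene 20539, chromosome 8, 122607885 to 122634425, minus strand), was at 393, 384, 374 and 302 CPM with thapsigargin, at 386, 404, 411 and 293 CPM in calcium-free medium and at 399, 403, 420.0 and 286 CPM in control. Replicate 4 was lowest in every group and the groups overlapped. Its log2 fold change with thapsigargin was -0.05 ± 0.14 (adjusted p = 0.809), and the block gave adjusted p = 0.266. The cystine and glutamate exchanger Slc7a11 averaged 23.2 ± 1.13 CPM with thapsigargin, 25.5 ± 1.98 CPM in calcium-free medium and 24.3 ± 1.79 CPM in control (SD, n = 4 each). Neither treatment moved it past the threshold, at -0.07 ± 0.07 with thapsigargin and 0.07 ± 0.07 in calcium-free medium, with the block or without. Slc7a7, the light chain y+LAT1, was at 2.24 ± 0.341, 2.50 ± 0.188 and 2.85 ± 0.513 CPM in the same groups. Its thapsigargin difference of -0.35 ± 0.15 missed the threshold (adjusted p = 0.0971) and passed with the block (adjusted p = 0.0225), without replicate 4 of all groups (adjusted p = 0.0494), without thapsigargin replicate 4 (adjusted p = 0.0344) and without control replicate 3 (adjusted p = 0.0178). Its gene model overlaps Oxa1l on the opposite strand.

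**Figure D2:**
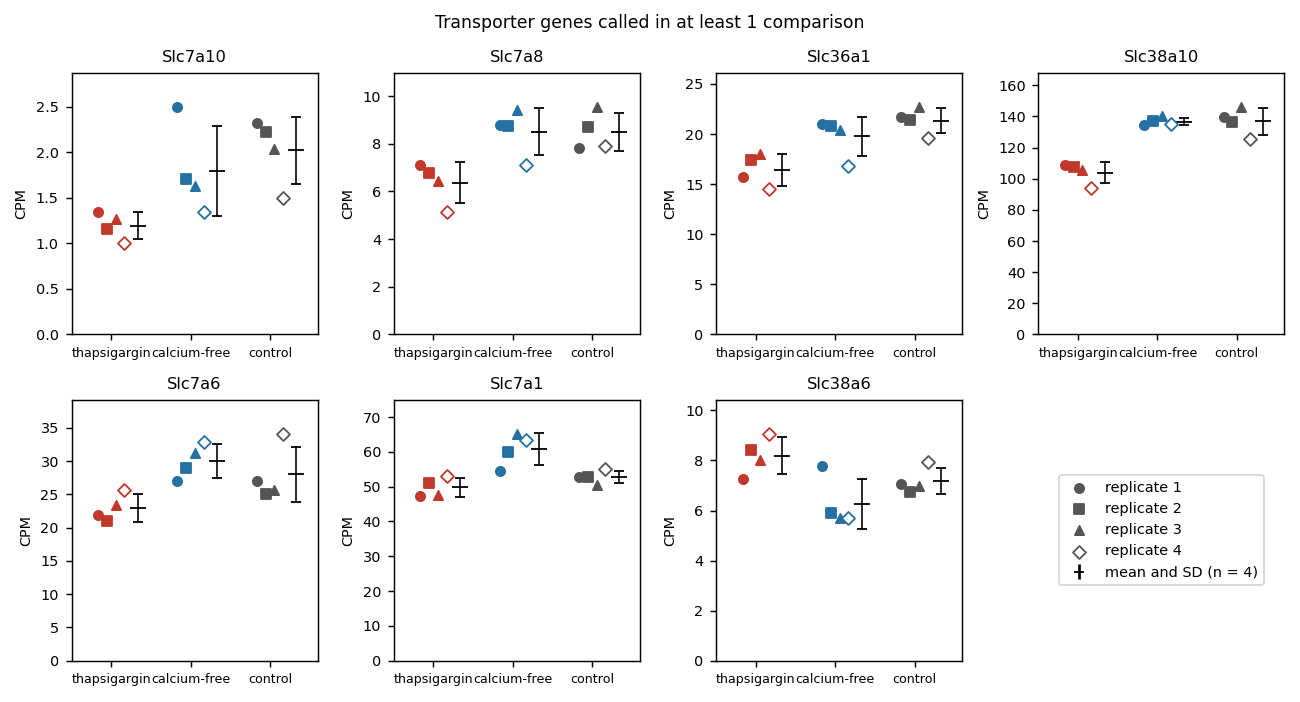
CPM of the 7 transporter genes that passed in at least 1 comparison, by group (thapsigargin, calcium-free, control), with 1 symbol per replicate number and the mean with its SD (n = 4). For Slc38a10, thapsigargin libraries sit between 93.8 and 109 CPM, all below the control libraries.

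The heavy chain Slc3a2 (gene 17254, chromosome 19, 8684931 to 8700733, minus strand) was at 492, 492, 483 and 373 CPM with thapsigargin, at 456, 456, 492 and 316 CPM in calcium-free medium and at 402, 410.0, 431 and 281 CPM in control. Within each number the thapsigargin library was above the control library, in 4 of 4 pairs, yet the groups overlapped, with replicate 4 lowest in each. Without the block the log2 fold change of 0.27 ± 0.16 did not pass (adjusted p = 0.222). With it, Slc3a2 was higher by 0.28 ± 0.03 (adjusted p = 3.31e-06), and without replicate 4 of all groups by the same 0.28 ± 0.03 (adjusted p = 5.50e-06). Summed over the 6 light chains described, Slc7a5 supplied 93.3 to 94.8% of the TPM with thapsigargin, 92.1 to 93.9% in calcium-free medium and 91.6 to 94.3% in control. The ratio of Slc3a2 to the summed light chains, in TPM, was 0.446, 0.458, 0.459 and 0.434 with thapsigargin, 0.416, 0.399, 0.422 and 0.374 in calcium-free medium, and 0.355, 0.359, 0.364 and 0.338 in control. The 3 groups did not overlap in this ratio, which was formed after the values were seen and is given as a description, and replicate 4 was the lowest of its group each time. The size of the ratio depends on the summed exon lengths, 9333 bases for Slc3a2 and 3513 for Slc7a5. In CPM the control means of these 2 genes were 381 and 377.

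**Figure D3:**
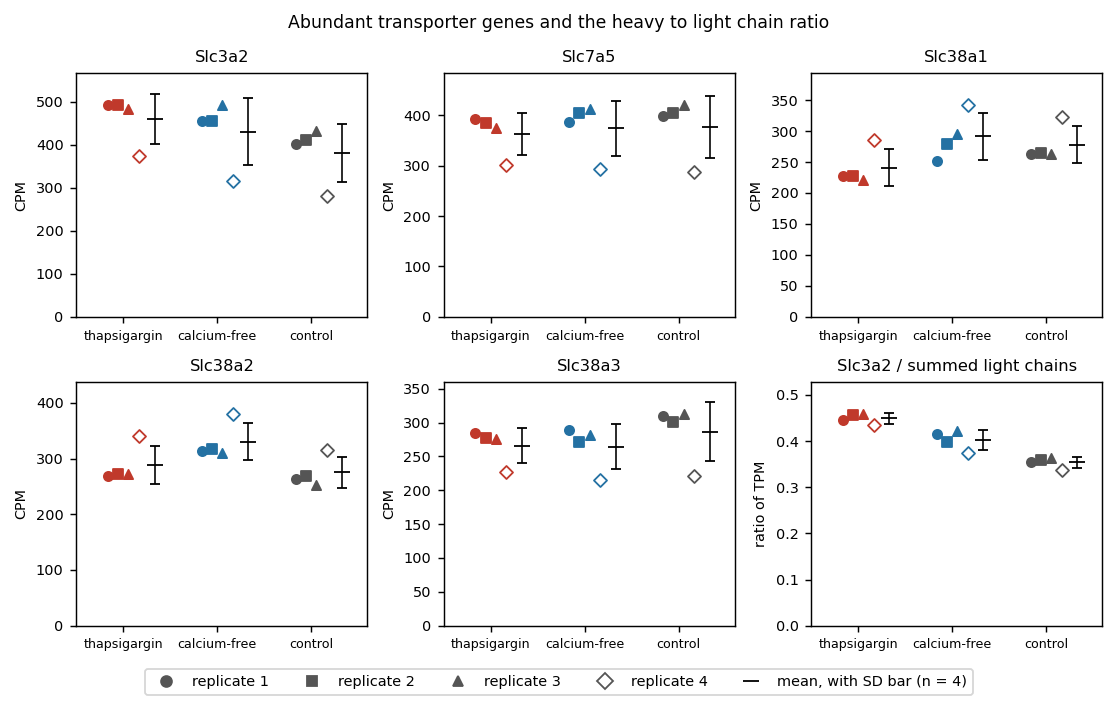
CPM of 5 abundant transporter genes by group (thapsigargin, calcium-free, control) and, in the last panel, the ratio of Slc3a2 to the summed TPM of the 6 light chains, with 1 symbol per replicate number and the mean with its SD (n = 4). Slc38a1 was added to the plot after its values were seen. Replicate 4 is lowest for Slc3a2, Slc7a5 and Slc38a3 and highest for Slc38a1 and Slc38a2 in every group, while the ratio separates the groups.

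None of the 5 cationic members passed against control with thapsigargin. Slc7a1 encodes CAT-1, an arginine and lysine carrier (gene 11987, chromosome 5, 148264220 to 148336714, minus strand). It was at 47.2, 51.1, 47.7 and 53.0 CPM with thapsigargin, at 54.6, 60.0, 65.2 and 63.3 CPM in calcium-free medium and at 52.8, 52.9, 50.6 and 54.9 CPM in control. Thapsigargin and control libraries overlapped, and the difference of -0.09 ± 0.06 did not pass (adjusted p = 0.309). Slc7a2, the related carrier CAT-2, was at 141 ± 7.80 CPM with thapsigargin, 156 ± 11.0 CPM in calcium-free medium and 151 ± 5.31 CPM in control. Its difference of -0.10 ± 0.06 passed with the block (adjusted p = 0.0126), and not without replicate 4 (adjusted p = 0.304). Slc7a3, Slc7a4 and Slc7a14 had log2 fold changes of 0.12 ± 0.19, -0.14 ± 0.07 and 0.02 ± 0.48. The gene model of Slc7a3, with 541 counts, overlaps 1086 bases of Snx12 on the same strand, which held 27188 counts. Snx12 was at -0.13 ± 0.03 (adjusted p = 0.0110), and the share of its reads in the Slc7a3 value was not tested. The wide error of Slc7a14 goes with its low replicate 4, at 0.436 CPM with thapsigargin, 0.491 CPM in calcium-free medium and 0.429 CPM in control, where all other libraries were at 1.35 CPM or above.

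Of the 3 proton-coupled carriers, Slc36a1 fell. Its product PAT1 moves small neutral amino acids out of lysosomes with protons (gene 215335, chromosome 11, 55095148 to 55127156, plus strand). Levels were 15.7, 17.4, 18.1 and 14.5 CPM with thapsigargin, 21.0, 20.8, 20.4 and 16.9 CPM in calcium-free medium and 21.7, 21.4, 22.7 and 19.6 CPM in control. Every thapsigargin library was below every control library, and only calcium-free replicate 4 lay inside the thapsigargin range. Slc36a1 fell by 0.38 ± 0.09 against control (adjusted p = 0.00504), in 4 of 4 pairs and without each single library in turn. Slc36a4, a relative with high affinity for proline and tryptophan, averaged 23.7 ± 2.78 CPM with thapsigargin and 23.3 ± 1.42 CPM in control (0.02 ± 0.08). Slc36a2, at 0.322 to 1.01 CPM over the 12 libraries, was at -0.39 ± 0.32 and did not pass.

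System A and system N members did not pass with thapsigargin. Slc38a2, encoding SNAT2 (gene 67760, chromosome 15, 96585267 to 96597609, minus strand), was at 269, 272, 272 and 340.3 CPM with thapsigargin, at 313, 317, 311 and 381 CPM in calcium-free medium and at 264, 269, 253 and 316 CPM in control. Replicate 4 was highest in every group. The thapsigargin difference of 0.06 ± 0.10 did not pass (adjusted p = 0.670), nor with the block (adjusted p = 0.0553), but did without replicate 4, at 0.09 ± 0.03 (adjusted p = 0.0180). Slc38a1, encoding SNAT1, averaged 241 ± 30.3 CPM with thapsigargin, 292 ± 37.9 CPM in calcium-free medium and 278 ± 29.8 CPM in control. Its difference of -0.21 ± 0.11 (adjusted p = 0.177) was negative in 4 of 4 pairs and passed with the block (adjusted p = 7.31e-05). Slc38a3, encoding the glutamine carrier SNAT3 (gene 76257, chromosome 9, 107528353 to 107546167, minus strand), was at 284, 278, 275 and 227 CPM with thapsigargin, at 289, 271, 281 and 216 CPM in calcium-free medium and at 310.2, 302, 313 and 221 CPM in control. Replicate 4 was lowest in every group, so the ranges overlapped, and thapsigargin replicate 4 was above control replicate 4, unlike the other 3 pairs. The difference of -0.11 ± 0.12 (adjusted p = 0.565) passed with the block (adjusted p = 0.0145).

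Among the remaining SLC38 members, Slc38a10 had the smallest p of all 25 genes. Its product is reported to carry glutamine, glutamate and other amino acids (gene 72055, chromosome 11, 119994777 to 120042177, minus strand), and its promoter is printed above. Levels were 109, 107, 106 and 93.8 CPM with thapsigargin, 134, 137, 139.9 and 135 CPM in calcium-free medium and 139, 136, 146 and 126 CPM in control. Thapsigargin libraries lay below all others, and the calcium-free libraries lay inside the control range. Slc38a10 fell by 0.40 ± 0.05 against control (adjusted p = 1.62e-04), in 4 of 4 pairs and without each single library in turn. Slc38a6, an SLC38 member whose transport role is less well defined (gene 625098, chromosome 12, 73333622 to 73408772, plus strand), was at 7.27, 8.42, 8.02 and 9.07 CPM with thapsigargin, at 7.77, 5.92, 5.70 and 5.72 CPM in calcium-free medium and at 7.06, 6.73, 6.97 and 7.94 CPM in control. Against control its difference of 0.19 ± 0.11 did not pass (adjusted p = 0.215). Slc38a9, the lysosomal arginine sensor that signals to mTORC1, was at 8.51, 9.55, 9.34 and 10.3 CPM with thapsigargin, at 8.68, 7.38, 7.47 and 8.04 CPM in calcium-free medium and at 6.60, 8.54, 6.80 and 10.1 CPM in control, with overlap between the groups. Its difference of 0.23 ± 0.12 passed with the block (adjusted p = 0.0417). Slc38a7, which exports glutamine from lysosomes, was at -0.03 ± 0.05.

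The SLC43 members carry branched-chain and other large neutral amino acids by facilitated diffusion, except Slc43a3, which is known as a purine nucleobase carrier. None passed with thapsigargin in the fit of all 12 libraries without the block. Slc43a1 was at 1.55, 1.39, 1.75 and 3.15 CPM with thapsigargin, at 0.998, 1.37, 0.854 and 1.83 CPM in calcium-free medium and at 0.991, 0.480, 1.58 and 2.19 CPM in control, and is named after its values were seen because the block changed its call. Its difference of 0.58 ± 0.41 passed with the block (adjusted p = 0.0444) and not without replicate 4 (adjusted p = 0.101). Its gene model overlaps 1357 bases of the noncoding gene D930003E18Rik on the opposite strand, which held 519 counts against the 748 of Slc43a1 and was at 0.15 ± 0.21 in the same comparison, and the share of its reads in this value was not tested. Slc43a2 averaged 35.9 ± 5.47 CPM with thapsigargin, 41.1 ± 7.07 CPM in calcium-free medium and 42.0 ± 6.21 CPM in control, a difference from control of -0.23 ± 0.15 that passed with the block (adjusted p = 5.34e-04) and without replicate 4 of all groups (adjusted p = 0.0181). Slc43a3 was at -0.07 ± 0.04.

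Fitting the replicate number as a block, 3 of the 25 genes were higher and 10 lower with thapsigargin, where the same fit called 23.0% of all genes higher and 28.2% lower. The 3 higher were Slc3a2, Slc38a9 and Slc43a1. The 10 lower were the 4 named first and Slc7a2, Slc7a6, Slc7a7, Slc38a1, Slc38a3 and Slc43a2. Without replicate 4 of all groups, 3 were higher and 9 lower, where 24.4% of all genes were higher and 21.2% lower. Leaving out single libraries, 7 were lower without thapsigargin replicate 4 and 1, Slc38a9, was higher without control replicate 4. Over all genes the first of these fits called 2671 of 17198 lower and the second 3031 of 17195 higher.

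**Figure D4:**
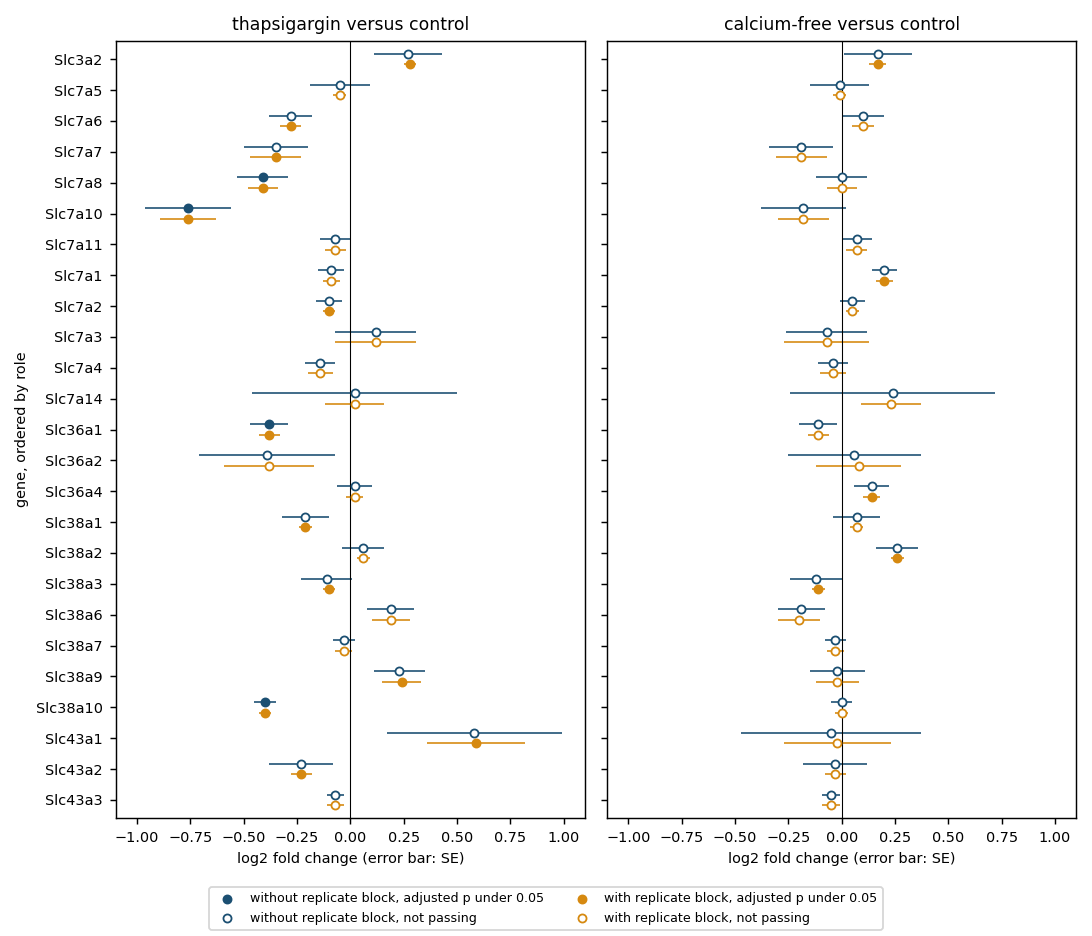
Log2 fold change of each described transporter gene with its SE, thapsigargin versus control on the left and calcium-free versus control on the right, without the replicate block and with it. Filled points passed at an adjusted p under 0.05. Slc7a10 at -0.76 is the lowest filled point, and errors are narrower with the block for Slc3a2, Slc38a1 and Slc38a2, among others.

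In calcium-free medium 0 of the 25 transporter genes rose and 0 fell against control by edgeR, where 3.78% of all genes were higher and 1.55% lower. At an unadjusted p under 0.05 there were 2, Slc7a1 and Slc38a2, both higher, and DESeq2 called 1, Slc7a1. Over all 16982 genes it tested here, DESeq2 called 1078 higher and 400 lower. The median log2 fold change was -0.014, against -0.00761 over all genes. Slc7a1 was higher by 0.20 ± 0.06 (adjusted p = 0.0657), in 4 of 4 pairs, with calcium-free replicate 1 at 54.6 CPM the only one inside the control range. It passed by DESeq2 (adjusted p = 0.00998), with RLE factors (adjusted p = 0.0439), with the block (adjusted p = 0.00322) and without calcium-free replicate 1 (adjusted p = 0.0123). Slc38a2 was higher by 0.26 ± 0.10 (adjusted p = 0.160), and the 4 pairs differed by 0.25, 0.24, 0.30 and 0.27 on the log2 scale. With the block this became 0.26 ± 0.03 (adjusted p = 4.74e-06).

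With the block 4 transporter genes were higher in calcium-free medium and 1 lower, where that fit called 10.4% of all genes higher and 7.01% lower. The 4 were Slc7a1, Slc38a2, the heavy chain Slc3a2 at 0.17 ± 0.04 (adjusted p = 0.00229) and Slc36a4 at 0.14 ± 0.04 (adjusted p = 0.0334). The lower one was Slc38a3 at -0.11 ± 0.03 (adjusted p = 0.0197). Each of the 4 was higher in 4 of 4 pairs, and Slc38a3 was lower in 4 of 4. Without replicate 4 of all groups the counts were again 4 and 1, where 10.5% of all genes were higher and 5.16% lower. For Slc7a5 the calcium-free difference was -0.01 ± 0.14, for Slc38a10 0.00 ± 0.05, and for Slc7a8 0.00 ± 0.12.

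Set against calcium-free medium directly, thapsigargin cells had 1 transporter gene higher and 6 lower, where 14.6% of all genes were higher and 13.2% lower. The members lower were 24% of the 25. Their median log2 fold change was -0.148, against -0.0242 over all genes. This comparison shares its thapsigargin libraries with that against control. With thapsigargin Slc38a10 was lower than in calcium-free medium by 0.40 ± 0.05 (adjusted p = 2.61e-04). Slc7a1 was lower by 0.29 ± 0.06 (adjusted p = 0.00301) and Slc7a6 by 0.39 ± 0.10 (adjusted p = 0.0138). For these 3 genes the thapsigargin libraries lay below all calcium-free libraries, and the calls held without each single library in turn. For Slc7a1, thapsigargin libraries were between 47.2 and 53.0 CPM and calcium-free libraries between 54.6 and 65.2 CPM. Against control Slc7a1 was at -0.09 ± 0.06 with thapsigargin and at 0.20 ± 0.06 in calcium-free medium, neither of which passed. Slc7a8 fell by 0.41 ± 0.12 (adjusted p = 0.0188), and lost its call without calcium-free replicate 2 (adjusted p = 0.0505) or 3 (adjusted p = 0.0614).

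The remaining 3 calls of this comparison rested on more of the libraries. Slc36a1 fell by 0.27 ± 0.09 (adjusted p = 0.0368), and this call was lost without calcium-free replicates 1, 2 or 3, thapsigargin replicates 1 or 4, or control replicates 1 or 2, with adjusted p up to 0.0991. Slc7a10 fell by 0.58 ± 0.20 (adjusted p = 0.0488), and this held only without calcium-free replicate 4 or control replicate 4 among the 12 libraries left out singly, with adjusted p up to 0.132 for the other 10. Slc38a6 was higher with thapsigargin by 0.39 ± 0.11 (adjusted p = 0.0201). Against control it was at 0.19 ± 0.11 with thapsigargin and at -0.19 ± 0.11 in calcium-free medium, neither of which passed. Thapsigargin libraries were between 7.27 and 9.07 CPM and calcium-free replicates 2 to 4 between 5.70 and 5.92 CPM. Calcium-free replicate 1, at 7.77 CPM, overlapped the thapsigargin libraries, and 3 of 4 pairs were higher. That call was lost without thapsigargin replicates 2 or 4 or calcium-free replicates 2 or 3 (adjusted p up to 0.0639), after which 0 transporter genes were higher. The gene model of Slc38a6 overlaps 133 bases of Trmt5 on the opposite strand, which was at 0.21 ± 0.15 and did not pass.

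With the block 4 transporter genes were higher with thapsigargin than in calcium-free medium, where 22.4% of all genes were, and 12 were lower, where 26.9% were. The higher ones were Slc38a6, Slc3a2 at 0.11 ± 0.03 (adjusted p = 0.0155), Slc38a9 at 0.26 ± 0.09 (adjusted p = 0.0325) and Slc43a1 at 0.62 ± 0.23 (adjusted p = 0.0408). Added to the 6 lower ones were the system A carriers Slc38a1 at -0.28 ± 0.03 (adjusted p = 5.18e-06) and Slc38a2 at -0.20 ± 0.03 (adjusted p = 8.21e-06), with Slc7a2, Slc7a11, Slc36a4 and Slc43a2. Slc7a11 was at -0.14 ± 0.05 (adjusted p = 0.0206). Without replicate 4 of all groups 3 were higher and 12 lower, where 21.7% of all genes were higher and 19.4% lower. Without calcium-free replicate 2, 3 were lower, where 1623 of 17266 genes were. Without calcium-free replicate 3 again 3 were lower, where 1647 of 17271 genes were.

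Other amino acid transporters, mitochondrial and lysosomal ones included, gave a list of 30 genes, of which 26 were tested. With thapsigargin 3 rose and 8 fell against control, with a median of -0.12. These were 11.5% and 30.8% of the 26, against 16.4% higher and 14.8% lower over all genes. Slc25a13, a mitochondrial aspartate and glutamate carrier, fell by 0.53 ± 0.07 (adjusted p = 1.21e-04), and Slc1a5, the glutamine exchanger ASCT2, by 0.36 ± 0.06 (adjusted p = 4.81e-04). Slc15a4, a lysosomal histidine and peptide carrier, rose by 0.34 ± 0.05 (adjusted p = 1.69e-04). In calcium-free medium 0 of the 26 passed by edgeR in either direction, with 1 higher and 1 lower at an unadjusted p under 0.05 and 1 higher by DESeq2. The block gave 4 higher and 13 lower with thapsigargin, against 23.0% and 28.2% of all genes, and 1 and 1 in calcium-free medium, against 10.4% and 7.01%.

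ATF4 itself and 24 further genes, of the amino acid response or of the eIF2α pathway around it, were all tested. With thapsigargin 6 rose and 9 fell, with a median of -0.13. These were 24% and 36% of the 25, against 16.4% and 14.8% of all genes. Of the 4 genes with the smallest p, Atf4 rose by 2.08 ± 0.06 and Ddit3 by 1.32 ± 0.11. Ppp1r15a, a phosphatase subunit that reverses eIF2α phosphorylation, rose by 1.19 ± 0.07. Psat1, an enzyme of serine synthesis, fell by 0.35 ± 0.04 (adjusted p = 7.93e-05), to 363 ± 14.8 CPM, against 462 ± 13.0 CPM in control. In calcium-free medium 3 rose, against 3.78% of all genes, and 0 fell by edgeR or DESeq2 with 1 lower at an unadjusted p under 0.05. Those that rose were Atf4 by 0.98 ± 0.06, Ppp1r15a by 0.90 ± 0.07 and Cebpb by 0.32 ± 0.07. With the block these counts were 7 and 11 with thapsigargin, against 23.0% and 28.2% of all genes, and 5 and 2 in calcium-free medium, against 10.4% and 7.01%. Atf4 protein was not measured.

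A list of 37 genes around mTORC1 held amino acid sensors and relays, subunits of mTORC1 itself, Tsc1, Tsc2 and Rheb, and the transcription factors Tfeb and Tfe3. Of the 37, 36 were tested. Sesn2 is on this list and on that of ATF4, so the counts of these lists are not separate. With thapsigargin 7 rose and 11 fell, with a median of -0.02. These were 19.4% and 30.6% of the 36, against 16.4% and 14.8% of all genes. Sesn1, a sestrin that restrains mTORC1, fell by 0.78 ± 0.05 (adjusted p = 7.82e-07), to 34.2 ± 1.96 CPM, against 58.6 ± 2.47 CPM in control. Tsc1, a brake on Rheb, rose by 0.52 ± 0.07, and Tfeb, the lysosomal transcription factor, by 0.36 ± 0.05, while Lamtor2, of the Ragulator scaffold, fell by 0.25 ± 0.04. In calcium-free medium Sesn1 fell by 0.27 ± 0.05 (adjusted p = 0.00975), the 1 gene of the 36 that passed by edgeR, while DESeq2 called 1 higher and 1 lower, and 1.55% of all genes were lower. The block gave 8 higher and 12 lower with thapsigargin, against 23.0% and 28.2% of all genes, and 4 and 2 in calcium-free medium, against 10.4% and 7.01%.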

How the data were processed

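Poly-A RNA libraries were made with a stranded kit from 500 ng of RNA and 14 cycles of PCR, per the labels' protocols, which give RNA integrity numbers above 9.3. The submitters' processing notes name featureCounts 1.6.4, STAR 2.7.2b and cutadapt 1.17 with the genome build GRCm39. No source used here gives the order, options or strand setting of these tools. The authors deposited estimated counts per gene, of which 14.2 to 15.9% per library had a fractional part, with a summed exon length per gene, and no other sample's column was present. Totals lay between 36.19 and 42.57 M counts, and without molecular identifiers precision is that of read counts.

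Counts were rounded and tested with edgeR 4.0.16 in R 4.3.3 (quasi-likelihood, robust, TMM factors, edgeR's low-count filter with min.count 10, all 12 libraries with 1 mean per group), with Benjamini-Hochberg adjustment over 17077 genes and a threshold of 0.05. CPM used TMM-scaled library sizes, and TPM the deposited exon lengths. Errors of fold changes are standard errors derived from the test statistic. The fitting code was tested on simulated data. Alternatives were upper quartile and RLE factors, no filter, fits of 2 groups, DESeq2 1.42.0, the replicate number as a block, and libraries left out.

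Groups and replicate numbers came from the titles. Deviations from the group means correlated between same-numbered libraries with r of 0.159 to 0.836 across genes. The high values came from replicate 4 (r of 0.814 to 0.836). With only replicates 1 to 3 considered, same-numbered libraries had r of 0.159 to 0.392 and differently numbered ones 0.238 to 0.412. The values thus pair the libraries of replicate 4 only, and pairs 1 to 3 rest on the numbers in the titles. Separate cultures behind replicates 1 to 3 are not shown by the values. P-values measure the spread between these libraries. Relative to sampling noise, pairs of replicates 1 to 3 within a group differed by 1.66 to 19.0 (chi-square per degree of freedom). Pairs with replicate 4 differed by 38.0 to 46.0. Calls without replicate 4 rest on the smaller spread alone, and the block takes the shift of replicate 4 out of the error.

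Every transporter gene called in any comparison, and the 5 highest in control by TPM, were named with all values, and up to 4 genes of each further list by smallest p. A gene that this rule names is not reported here. The members, lists and rules were chosen with earlier results of these data known. Genes are by the files' symbols and GRCm39 coordinates, and promoters by gene ID from RefSeq, GRCm38.p6. Slc7a10, Slc7a7, Slc7a3 and Slc38a6 overlap other protein coding genes, and Slc43a1 a noncoding gene, which leaves their counts uncertain. Slc7a14, Slc38a10 and Slc43a2 overlap noncoding genes of at most 143 counts.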

Additional observations from a re-analysis of the deposited data

Results flagged for a closer look

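Among 33 groups of 4 libraries (11 genes named with all their values, in 3 groups each), 8 held a library whose gap to its nearest neighbour exceeded Dixon's 95% critical value for 4 samples, and chance marks about 1 in 20 groups. Of these, 7 were in replicate 4, whose difference from replicates 1 to 3 extended over most transporter genes and whose cause was not tested. Slc3a2 was at 373 CPM in thapsigargin replicate 4, below 483 to 492 CPM in the other thapsigargin libraries. Slc7a5 was at 286 CPM in control replicate 4, below 399 to 420.0 CPM in the other controls. Slc36a1 was at 16.9 CPM in calcium-free replicate 4, below 20.4 to 21.0 CPM. Slc38a2 was at 340.3 CPM in thapsigargin replicate 4, above 269 to 272 CPM, and at 381 CPM in calcium-free replicate 4, above 311 to 317 CPM. Slc38a3 was at 227 CPM in thapsigargin replicate 4, below 275 to 284 CPM, and at 221 CPM in control replicate 4, below 302 to 313 CPM. The remaining one was Slc38a6 in calcium-free replicate 1, at 7.77 CPM, above 5.70 to 5.92 CPM in the other calcium-free libraries.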

How the results depend on the processing

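The replicate block and the removal of replicate 4 changed the counts of called transporter genes most. With the replicate block, which follows the numbers in the titles, 3 were higher and 10 lower with thapsigargin versus control, 4 and 1 in calcium-free medium versus control, and 4 and 12 with thapsigargin versus calcium-free medium. Without replicate 4 of all groups these counts were 3 and 9, 4 and 1, and 3 and 12. With both together, an alternative chosen after seeing the data, they were 3 and 8, 3 and 1, and 2 and 12. Over all 17004 genes of that fit, 3994 were higher and 3404 lower with thapsigargin versus control. In calcium-free medium 1565 were higher and 663 lower, and between the treatments 3526 and 3061. RLE factors and DESeq2 each gave 1 higher gene in calcium-free medium, and the fit of only the 2 groups gave 2 higher with thapsigargin versus calcium-free medium. In the same comparisons these fits called 788 of 17077, 1078 of 16982 and 2421 of 16735 genes higher. Leaving out single libraries gave 0 to 1 higher and 4 to 7 lower with thapsigargin versus control, and 0 to 1 higher and 0 lower in calcium-free medium. With thapsigargin versus calcium-free medium it gave 0 to 1 higher and 3 to 7 lower. Over all 17195 to 17271 genes, these fits called 2361 to 3031 higher and 1924 to 2719 lower with thapsigargin versus control. In calcium-free medium they called 296 to 849 higher and 76 to 600 lower, and between the treatments 1993 to 2654 and 1623 to 2545. The call of Slc7a10 between thapsigargin and calcium-free medium was lost with 4 alternatives beside those libraries, and that of Slc36a1 with 2.

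Differences near 0 changed sign without passing the threshold. In calcium-free medium versus control, Slc7a8 was at -0.02 with upper quartile factors and at -0.05 to 0.08 without single libraries. Slc38a10 was at 0.0078 with RLE factors, 0.0016 without the filter, 0.0037 with only the 2 groups, 0.0009 with the replicate block, 0.01 by DESeq2 and -0.04 to 0.03 without single libraries. Without single libraries, Slc7a5 ran from -0.17 to 0.02 with thapsigargin versus control, from -0.12 to 0.08 in calcium-free medium versus control and from -0.13 to 0.04 between the treatments. Slc38a2 ran from -0.03 to 0.14 with thapsigargin versus control, and between the treatments Slc38a3 ran from -0.06 to 0.08 and Slc3a2 from -0.01 to 0.19. The causes were not tested. Depth limits Slc7a3, Slc7a10, Slc7a14, Slc36a2 and Slc43a1, which had 315 to 801 counts over the 12 libraries.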
